A study of Mus musculus with 14 samples.

Results

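Meiotic cohesin and synaptonemal complex genes were followed in mouse primordial germ cells, from which eggs and sperm later arise, between embryonic day (E) 9.5 and E13.5. The set comprised 10 genes named for their known roles: Rec8, Smc1b and Stag3 of meiotic cohesin, Hormad1, Sycp2 and Sycp3 of the chromosome axis, Sycp1 of the transverse filament, and Syce1, Syce2 and Tex12 of the central element. A probe set was taken when the annotation of the array gave it one of these symbols and no other. Each of the 10 genes had exactly 1 such probe set, among 34945 probe sets with a single symbol and 18194 genes tested. The rule uses no measured values.

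Cohesin is a ring-shaped complex that holds sister chromatids together. In meiosis several general subunits are replaced by germline forms: REC8 stands in for RAD21, SMC1B for SMC1A, and STAG3 for STAG1 or STAG2. The chromatin loops are anchored on an axis that contains this cohesin together with SYCP2, SYCP3 and HORMAD1, and during prophase homologous axes are zipped together by SYCP1 filaments that meet in a central element of SYCE1, SYCE2, TEX12 and related proteins. In the mouse, XX germ cells begin meiosis in the fetal ovary, with the transcriptional regulator STRA8 induced as they do so, while XY germ cells in the fetal testis stop dividing and enter meiosis after birth.

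The arrays numbered 14, with 2 biological replicates in each of 7 groups. Female and male embryos formed separate groups at E12.5 and again at E13.5, and are called XX and XY here. At E9.5, at E10.5 and at E11.5 the cells were not sexed. For E10.5 to E13.5, BDF1 females had been mated with males of a stella-EGFP transgenic line, a reporter of the germ cell gene Dppa3, and germ cells were sorted on EGFP fluorescence from genital ridges treated with trypsin. The E9.5 cells were of C57BL/6 background and came from an earlier study, and no sort is described for them in the sources used here. All RNA was amplified by PCR before labelling, with 22 cycles at E9.5 and 12 at all later ages. None of the 7 groups is labelled as mutant or treated.

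Values were log2 probe set signals, and a signal below the table median of 4.72 is called dim. A change is a difference of log2 signals and says nothing of one gene against another in transcript number. Two-sided tests were made with limma, which pools the spread of all groups, and a gene passed with a Benjamini-Hochberg adjusted p under 0.05 over the 18194 genes. Precision was limited by the number of arrays, 2 in each group. Germ cell markers averaged 10.97 to 11.9 on the arrays, and Dppa3, the gene behind the reporter, lay between 13.1 and 13.8. Markers of gonadal somatic cells averaged 4.72 to 5.38, but some of the 15 differed between groups. At E13.5, 1 was higher and 1 lower in females than in males, against 1090 and 761 of all genes. These differences ran from -2.64 to 0.96, and 0 passed between the sexes at E12.5. From E12.5 to E13.5 in males 1 was higher, against 1.36% of all genes. In E13.5 males 2 were higher than in E12.5 females, against 3.16% of all genes. Blood markers (7 of 8 listed genes were measured) averaged 3.50 to 4.33 at E12.5 and E13.5, against 5.34 and 5.68 at E10.5, and endothelial markers (7 genes) averaged 5.09 to 5.92 at those later ages, against 6.48 and 6.98 at E10.5, so both lists moved with age. Hbb-y, an embryonic globin named here after its values were seen, was at 4.47 and 7.94 in females and 2.80 and 8.45 in males of E13.5, against 11.02 and 10.72 at E10.5. The part of these markers in the changes described here was not tested. The Y-linked gene Eif2s3y had signals of 5.93 and 2.58 in females and 11.5 and 11.3 in males of E13.5, and of 1.61 and 2.53 in E12.5 females. E13.5 female replicate 1 thus carried a Y-linked signal above the other female arrays. The difference between 3′ and 5′ Gapdh probe sets can reflect RNA length. It was 3.09 in E13.5 female replicate 2 and 3.16 in E13.5 male replicate 2, and at most 2.53 elsewhere. For Actb the same difference was 3.09 and 2.94 on these 2 arrays and between 2.18 and 3.39 on the others. The 2 arrays thus stood out for Gapdh only. Counts of passing members that involve E13.5 are also given without the 2 arrays of high Gapdh difference. The genes outside the set were not refitted without them. In sorted populations, fewer cells expressing a gene and less RNA per cell cannot be told apart.

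The sequence before the gene starts is described first. In the RefSeq promoter table (GRCm38.p6) all 10 members were found, with 12 windows because Hormad1 and Syce2 have 2 listed starts each, and the 250 bases before each start were read. The member windows held 7 to 26 CpG dinucleotides, with a median of 18, against a median of 6 over all 32851 windows. The Stag3 window (chr5:138280259-138280508, plus strand) lies before a listed start inside the gene, whose span begins at chr5:138272514. Windows of Rec8, Sycp2, Syce2 and Hormad1 also reach partly into the gene span. The hexamer CACGTG, an E box, was present in 7 of the 12 member windows and in 6.02% of all windows. These member windows lay before listed starts of 6 of the 10 genes (Stag3, Sycp1, Sycp3, Syce2, Hormad1 and Tex12). The hexamer GCGGGA, part of the E2F consensus, was present on either strand in 8 of 12 member windows and in 16.9% of all windows. Those member windows belonged to 6 genes (Rec8, Smc1b, Sycp3, Syce2, Hormad1 and Tex12). Both hexamers contain CG, and the shares of all windows were not matched for CpG number. CNCCTCAG, a motif reported for STRA8, was found before 1 gene, in a window of Syce2 where it overlaps a GCGGGA match, and in 6.42% of all windows. Sycp2 and Syce1 held none of these. A match is a description of letters and not a binding site. The windows of Smc1b, Sycp1, Sycp3 and Tex12 are printed, read 5′ to 3′ on the strand of the gene, because these genes rose in both sexes and show both hexamers, alone and together. They lie on the minus strand at chr15:85131958-85132207 (Smc1b), the minus strand at chr3:102936101-102936350 (Sycp1), the plus strand at chr10:88459337-88459586 (Sycp3) and the minus strand at chr9:50561269-50561518 (Tex12). Capitals mark CACGTG and GCGGGA matches on either strand.
Smc1b: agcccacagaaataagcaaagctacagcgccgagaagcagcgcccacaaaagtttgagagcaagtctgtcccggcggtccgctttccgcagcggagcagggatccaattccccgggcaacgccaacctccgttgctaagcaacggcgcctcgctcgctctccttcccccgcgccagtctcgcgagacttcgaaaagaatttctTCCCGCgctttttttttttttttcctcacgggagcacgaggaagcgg
Sycp1: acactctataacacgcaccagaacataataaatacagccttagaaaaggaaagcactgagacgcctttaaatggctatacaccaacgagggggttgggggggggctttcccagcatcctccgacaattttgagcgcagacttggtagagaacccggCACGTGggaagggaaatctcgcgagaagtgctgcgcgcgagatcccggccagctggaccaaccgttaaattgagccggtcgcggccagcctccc
Sycp3: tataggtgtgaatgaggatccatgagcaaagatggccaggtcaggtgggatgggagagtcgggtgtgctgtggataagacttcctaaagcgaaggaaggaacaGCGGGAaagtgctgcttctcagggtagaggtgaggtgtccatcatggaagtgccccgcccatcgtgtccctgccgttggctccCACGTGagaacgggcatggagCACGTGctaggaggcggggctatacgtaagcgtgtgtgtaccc
Tex12: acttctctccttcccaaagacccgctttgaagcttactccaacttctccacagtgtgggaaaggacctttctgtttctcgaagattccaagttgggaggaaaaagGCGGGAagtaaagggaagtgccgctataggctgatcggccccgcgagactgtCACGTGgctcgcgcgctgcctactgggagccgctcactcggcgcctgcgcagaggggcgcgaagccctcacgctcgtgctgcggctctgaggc
The GCGGGA match of Smc1b began 47 bases before the gene start and the E box of Sycp1 began 94 bases before it. Sycp3 had a GCGGGA match at 147 bases and E boxes at 64 and 43 bases, and Tex12 had them at 145 and 93 bases.

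Most members were above their E10.5 level in XX cells at E12.5 and at E13.5, and most also in XY cells. Relative to E10.5, 8 of the 10 members were higher in E12.5 females, where 3.7% of all genes were higher, and 9 of the 10 in E13.5 females, where 11.5% were. In E12.5 males 7 members were higher, against 1.87% of all genes, and 1 member, Rec8, was lower, against 2.8% of all genes. In E13.5 males 9 members were higher, against 7.52% of all genes. The median change over the 10 members was 2.17 in E12.5 females and 4.09 in E13.5 females, against 0.06 and 0.08 over all genes. In males it was 1.49 at E12.5 and 2.38 at E13.5, against 0.02 and 0.07 over all genes. These comparisons share the 2 arrays of E10.5. The E12.5 male count of 8 passing members was 4 when E12.5 male replicate 1 was left out and 2 when E12.5 male replicate 2 was. Fitted on the 4 compared arrays alone, 0 members passed at E12.5 in either sex with limma, with 9 members and 2726 genes in females and 8 members and 1977 genes in males at an unadjusted p under 0.05. At E13.5, 9 members passed in females without replicate 1 and 9 without both arrays of high Gapdh difference, and 7 passed in males without those arrays.

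**Figure D1:**
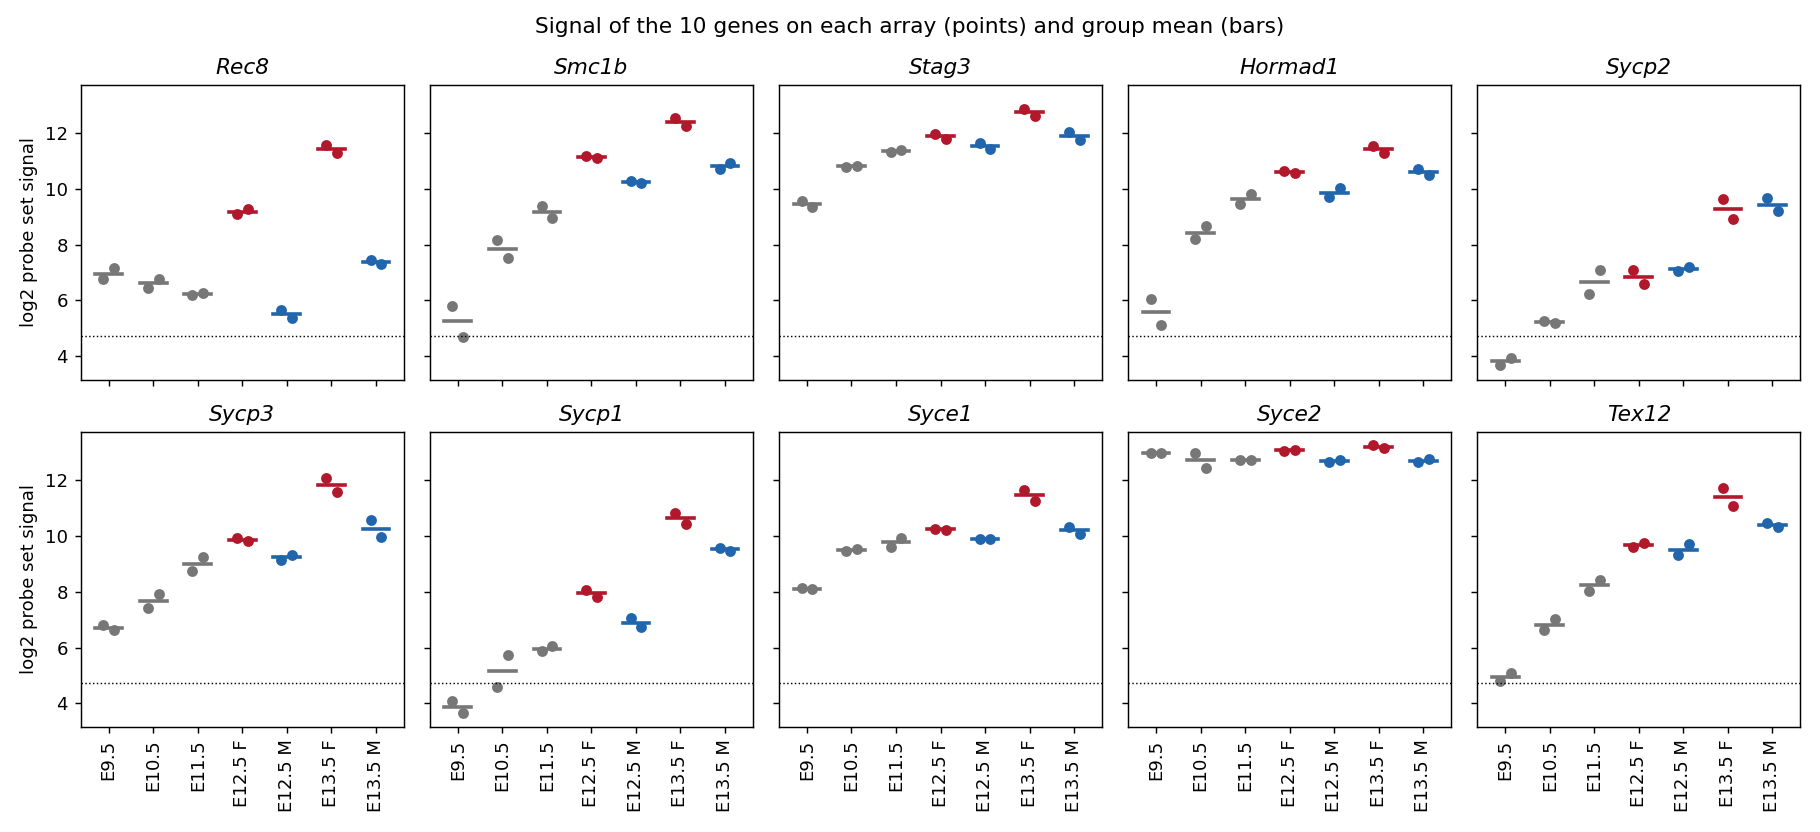
Log2 probe set signal (vertical axis) of each of the 10 genes on the 14 arrays (points), by group (horizontal axis), with the group mean as a bar and the table median of 4.72 as a dotted line; unsexed groups are grey, female (F) groups red and male (M) groups blue. Rec8 lies at 9.08 or higher on every female array of E12.5 and E13.5 and at 7.45 or lower on every other array, whereas Syce2 stays between 12.45 and 13.24 throughout.

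Of the cohesin subunits, Rec8 (chr14:55618002-55625395, GRCm38.p6), the meiotic kleisin that closes the ring, had the widest gap between the sexes of the 3, at 3.65 at E12.5 and 4.04 at E13.5. Its signals were 6.77 and 7.15 at E9.5, 6.45 and 6.78 at E10.5, 6.21 and 6.26 at E11.5, 9.08 and 9.26 in E12.5 females, 5.65 and 5.39 in E12.5 males, and at E13.5 they were 11.57 and 11.29 in females and 7.45 and 7.32 in males. The female arrays of both later ages lay above every other array, and the E12.5 male arrays were the lowest of all 14. Rec8 rose by 2.56 log2 units (SE 0.21, adjusted p = 0.000254, limma) in E12.5 females over E10.5 and by 4.82 in E13.5 females (adjusted p = 1.66e-06), a 28.1-fold difference of signal. In E12.5 males it was lower than at E10.5, by 1.09 (log2 change -1.09, adjusted p = 0.0158), a call lost without E10.5 replicate 2 or without E12.5 male replicate 2. In E13.5 males it was above E10.5 by 0.77 (adjusted p = 0.0398), a call lost without E10.5 replicate 1, without either E13.5 male array or without both arrays of high Gapdh difference (adjusted p = 0.143). From E12.5 to E13.5 in males it rose by 1.86 (adjusted p = 0.00312), and this call held whichever of the 4 arrays was left out, but was lost without both arrays of high Gapdh difference (1.93, adjusted p = 0.0822).

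Smc1b (chr15:85064689-85131957), the meiotic partner of SMC3 in the ring, rose early and in both sexes. Its signals were 5.79 and 4.71 at E9.5, 8.16 and 7.52 at E10.5, 9.37 and 8.96 at E11.5, 11.19 and 11.09 in E12.5 females, 10.29 and 10.22 in E12.5 males, and at E13.5 they were 12.52 and 12.26 in females and 10.71 and 10.91 in males. No 2 neighbouring ages overlapped in either sex, and all female arrays lay above the male arrays of the same age. Against E10.5 it rose by 3.30 in E12.5 females and 2.42 in E12.5 males (SE 0.23 each, adjusted p = 0.000131 and 0.000347). By E13.5 the changes were 4.55 in females and 2.97 in males. Stag3 (chr5:138272514-138312397), which docks on the ring and is needed for its stability in meiosis, was already bright. Its signals were 9.57 and 9.34 at E9.5, 10.79 and 10.83 at E10.5, 11.31 and 11.39 at E11.5, 11.97 and 11.78 in E12.5 females, 11.65 and 11.42 in E12.5 males, and at E13.5 they were 12.87 and 12.62 in females and 12.02 and 11.75 in males. Ages did not overlap within a sex, but the steps were smaller. Stag3 rose by 1.06 in E12.5 females over E10.5 and by 1.94 in E13.5 females (SE 0.17, adjusted p = 0.00529 and 4.7e-05), the first of these lost without E12.5 female replicate 1. In males the rise was 0.72 at E12.5 (adjusted p = 0.0343), lost without E10.5 replicate 2 or either E12.5 male array, and 1.07 at E13.5 (adjusted p = 0.00177).

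The axis genes rose in both sexes, and the female and male signals of Sycp2 overlapped. Hormad1 (chr3:95559677-95587863), which marks axes that are not yet synapsed, had signals of 6.06 and 5.14 at E9.5, 8.20 and 8.67 at E10.5, 9.46 and 9.82 at E11.5, 10.63 and 10.55 in E12.5 females, 9.69 and 10.02 in E12.5 males, and at E13.5 they were 11.55 and 11.27 in females and 10.72 and 10.50 in males. The E12.5 male arrays overlapped those of E11.5, and the female arrays did not. Hormad1 rose by 2.15 and 2.98 in females at E12.5 and E13.5 over E10.5, and by 1.42 and 2.17 in males (SE 0.22, adjusted p of 0.0052 or less). The call in E12.5 males was lost without E12.5 male replicate 2. Sycp3 (chr10:88459587-88473236), a fibre-forming protein of the axis, had signals of 6.81 and 6.62 at E9.5, 7.42 and 7.93 at E10.5, 8.73 and 9.25 at E11.5, 9.92 and 9.82 in E12.5 females, 9.15 and 9.32 in E12.5 males, and at E13.5 they were 12.07 and 11.57 in females and 10.57 and 9.96 in males. In males E12.5 overlapped E11.5, while in females each age stood above the one before. Sycp3 rose by 2.19 and 4.14 in females at E12.5 and E13.5 over E10.5 and by 1.56 and 2.59 in males (SE 0.28, adjusted p of 0.011 or less). The E12.5 male call was lost without either E12.5 male array.

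Sycp2 (chr2:178345295-178407776), the partner of SYCP3 in the axis, had signals of 3.70 and 3.95 at E9.5, 5.28 and 5.21 at E10.5, 6.22 and 7.10 at E11.5, 7.09 and 6.58 in E12.5 females, 7.06 and 7.20 in E12.5 males, and at E13.5 they were 9.62 and 8.93 in females and 9.67 and 9.20 in males. Dim at E9.5, it overlapped between E11.5 and E12.5 and between the sexes at both ages, while the E13.5 arrays of both sexes stood above all earlier ones. Against E10.5 its changes were 1.59 and 4.03 in females at E12.5 and E13.5 (adjusted p = 0.0221 and 4.21e-05) and 1.89 and 4.19 in males (adjusted p = 0.0108 and 3.59e-05). The E12.5 calls were lost without either E12.5 array of the sex concerned, and in females also without E10.5 replicate 2. Both E13.5 calls held whichever array was left out.

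Sycp1 (chr3:102818499-102936100), the transverse filament that bridges homologous axes, had the highest change of the 10 at E13.5 in both sexes. Its signals were 4.10 and 3.64 at E9.5, 4.58 and 5.74 at E10.5, 5.87 and 6.05 at E11.5, 8.06 and 7.83 in E12.5 females, 7.05 and 6.72 in E12.5 males, and at E13.5 they were 10.83 and 10.44 in females and 9.57 and 9.47 in males. The E10.5 replicates differed by 1.16, the widest replicate gap of a member at that age, and 1 of them was dim. Sycp1 rose by 2.79 and 5.47 in females at E12.5 and E13.5 over E10.5 (SE 0.34, adjusted p = 0.00145 and 9.24e-06), the last a 44.5-fold difference of signal. In males it rose by 1.73 and 4.36 (adjusted p = 0.0153 and 3.09e-05), with the E12.5 male call lost without either E12.5 male array.

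The 3 central element genes had unlike courses: Tex12 rose in both sexes at E12.5, Syce1 passed at E13.5, and Syce2 did not pass. Tex12 (chr9:50557148-50561268), whose protein forms a complex with SYCE2, had signals of 4.81 and 5.09 at E9.5, 6.62 and 7.02 at E10.5, 8.04 and 8.41 at E11.5, 9.62 and 9.74 in E12.5 females, 9.30 and 9.72 in E12.5 males, and at E13.5 they were 11.71 and 11.07 in females and 10.48 and 10.31 in males. Each age stood above the one before, and the sexes overlapped at E12.5 but not at E13.5. It rose by 2.86 and 4.57 in females at E12.5 and E13.5 over E10.5 and by 2.69 and 3.58 in males (SE 0.26, adjusted p of 0.000389 or less). Syce1 (chr7:140777229-140787854), which binds SYCP1, had signals of 8.14 and 8.09 at E9.5, 9.46 and 9.52 at E10.5, 9.61 and 9.94 at E11.5, 10.25 and 10.21 in E12.5 females, 9.90 and 9.88 in E12.5 males, and at E13.5 they were 11.65 and 11.26 in females and 10.32 and 10.08 in males. The E13.5 female arrays stood above all others. Its change of 0.74 in E12.5 females narrowly missed the threshold (adjusted p = 0.0515) and that of 1.97 in E13.5 females passed (SE 0.19, adjusted p = 0.000102). In E13.5 males the change was 0.71 (adjusted p = 0.0357), lost when any 1 of the 4 arrays compared was left out.

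Syce2 (chr8:84872111-84887446), the partner of TEX12, passed in none of the comparisons when the deposited values of all 18194 genes were fitted with every array. Its signals were 12.98 and 12.96 at E9.5, 12.97 and 12.45 at E10.5, 12.73 and 12.73 at E11.5, 13.03 and 13.09 in E12.5 females, 12.66 and 12.71 in E12.5 males, and at E13.5 they were 13.24 and 13.14 in females and 12.65 and 12.75 in males. The highest value in the whole table was 14.04, so the probe set was bright at every age, including before meiosis. Its change in E13.5 females over E10.5 was 0.48 (95% interval 0.11 to 0.85, adjusted p = 0.0759, limma), which passed when dim genes were left out of the fit (adjusted p = 0.0422), and in E13.5 males it was -0.01 (95% interval -0.38 to 0.36, adjusted p = 0.984). The E10.5 replicates of Syce2 lay 0.52 apart, and without E10.5 replicate 1, the higher one, it passed in E12.5 females (0.61) and E13.5 females (0.74). How far such bright probe sets can still register an increase was not tested.

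**Figure D2:**
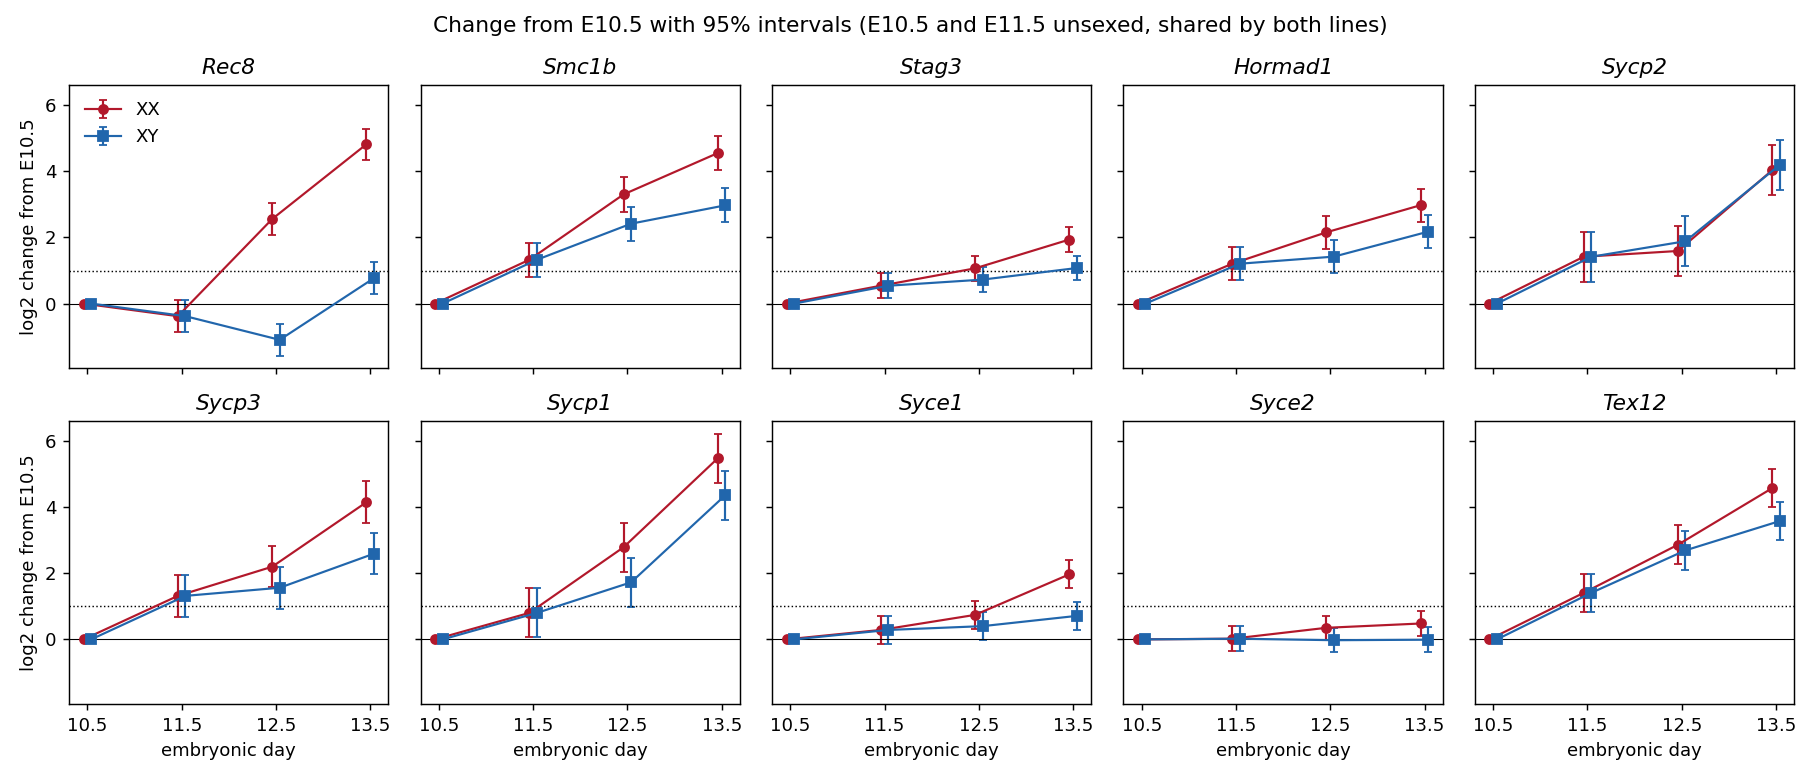
Log2 change from E10.5 (vertical axis) by embryonic day (horizontal axis) in XX (red circles) and XY (blue squares) cells, with 95% intervals from limma; the E10.5 and E11.5 points are the same unsexed arrays in both lines, and the dotted line marks a change of 1. At E13.5 the lines of Sycp2 lie together at 4.03 and 4.19, those of Rec8 lie apart at 4.82 and 0.77, and Syce2 stays near 0.

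The order of onset was set out by a common rule: the earliest age at which a gene passed against E10.5 with a log2 change of at least 1. The share of all genes that met the rule was 0.044% at E11.5, 3.05% in E12.5 females, 8.78% in E13.5 females, 1.65% in E12.5 males and 5.62% in E13.5 males. No member met it at E11.5, although Smc1b, Hormad1, Sycp2, Sycp3 and Tex12 had changes above 1 there that did not pass. The ages below are thus those of a passing call and not of a first rise. Levels before E10.5 do not enter the rule. In XX cells the age was E12.5 for 8 members (Rec8, Smc1b, Stag3, Hormad1, Sycp2, Sycp3, Sycp1 and Tex12), E13.5 for Syce1, and Syce2 did not meet it. In XY cells the age was E12.5 for 6 members (Smc1b, Hormad1, Sycp2, Sycp3, Sycp1 and Tex12) and E13.5 for Stag3, while Rec8, Syce1 and Syce2 did not meet it. The onset was therefore earlier in XX cells for 3 members (Rec8, Stag3 and Syce1) and earlier in XY cells for 0. It was the same or absent in both for the other 7. Rec8 and Syce1 are counted because they met the rule in XX cells only. Stag3 changed by 1.06 in E12.5 females and 0.72 in E12.5 males, and its sex difference there did not pass (0.34, adjusted p = 0.45, limma). The count of 3 was 2 after quantile normalization and 2 after median centring. This count rests on the E12.5 males: it was 6 when E12.5 male replicate 1 was left out and 7 when E12.5 male replicate 2 was. The age at which a threshold is crossed is not itself a test between the sexes.

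The step before the cells were sexed gave positive changes that did not pass the test. At E11.5 9 of the 10 members had a positive change over E10.5, with a median of 1.0 against 0.01 over all genes, but 0 passed with limma and 0.0769% of all genes passed in either direction. At an unadjusted p under 0.05 there were 7 members and 1287 genes. The highest changes were 1.42 for Sycp2 (adjusted p = 0.249), 1.41 for Tex12 (adjusted p = 0.0937) and 1.32 for Smc1b (adjusted p = 0.0804). The change of Rec8 was -0.38 (95% interval -0.86 to 0.10), the only negative one. Without E10.5 replicate 1, 1 member passed, Smc1b (1.64).

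The step between E11.5 and E12.5 was taken in each sex against the same unsexed arrays. Against E11.5, 4 members were higher in E12.5 females (Rec8 by 2.94, Sycp1 by 1.99, Smc1b by 1.98 and Tex12 by 1.46), where 1.41% of all genes were higher. In E12.5 males 0 members passed with limma in either direction, against 1.01% of all genes. At an unadjusted p under 0.05 there were 4 members and 1704 genes in the males. The male changes nearest to the threshold were 1.28 for Tex12 (adjusted p = 0.0519) and 1.09 for Smc1b (adjusted p = 0.0642). The female count was 2 without either E11.5 array and 1 without either E12.5 female array, and Rec8 passed in each of those fits.

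From E12.5 to E13.5 most members passed as higher in females, and 3 did in males. All 10 changes were positive in each sex. Their median was 1.48 in females and 0.82 in males, against 0.03 and 0.05 over all genes. At an unadjusted p under 0.05 there were 9 members and 2728 genes in females and 7 members and 2574 genes in males. In females 8 were higher at E13.5 than at E12.5, against 1.31% of all genes: Sycp1 by 2.69, Sycp2 by 2.44, Rec8 by 2.26, Sycp3 by 1.95, Tex12 by 1.71, Smc1b by 1.25, Syce1 by 1.23 and Stag3 by 0.87. In males 3 were higher, against 1.36% of all genes: Sycp1 by 2.63 (adjusted p = 0.0053), Sycp2 by 2.31 (adjusted p = 0.0104) and Rec8 by 1.86. The female count fell to 1 without E12.5 female replicate 1 and to 0 without E12.5 female replicate 2 or E13.5 female replicate 1, with 9 members and 1720 to 1914 genes at an unadjusted p under 0.05 in each of those fits. The male count was 1 without E12.5 male replicate 1 or E13.5 male replicate 1. Without both E13.5 arrays that had a high Gapdh difference, a setting added once the values were known, the counts were 1 in females and 0 in males. At an unadjusted p under 0.05 that setting gave 9 members and 2399 genes in females and 7 members and 2079 genes in males.

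The step at which a member gained most differed between genes and between sexes. In XX cells the step from E12.5 to E13.5 was the highest for 6 members, that from E11.5 to E12.5 for 3 (Rec8, Smc1b and Syce2) and that from E10.5 to E11.5 for 1 (Hormad1). In XY cells the highest step was that from E12.5 to E13.5 for 4 members (Rec8, Sycp1, Sycp2 and Syce1) and that from E10.5 to E11.5 for the other 6. Sycp2 gained 0.18 in females and 0.47 in males between E11.5 and E12.5 and then 2.44 and 2.31. These are steps between group means and no difference between steps was tested.

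At E12.5 Rec8 alone passed as different between the sexes. It was higher in XX cells by 3.65 (95% interval 3.17 to 4.13, adjusted p = 2.89e-05), a 12.6-fold difference of signal, and it passed whichever array was left out. This made 1 of 10 members, against 1.73% of all genes higher in females. At an unadjusted p under 0.05 there were 6 members and 2328 genes. The differences of the other 9 did not pass and ran from -0.29 for Sycp2 to 1.06 for Sycp1 (95% interval 0.32 to 1.80, adjusted p = 0.163), with a median of 0.50 over all 10, against 0.04 over all genes. Intervals for Smc1b (0.37 to 1.40), Hormad1 (0.24 to 1.23), Sycp1, Sycp3 (lower bound 0.0075) and Syce2 (lower bound 0.0045) lay above 0 although the adjusted p did not pass, so a sex difference in them was not resolved at 2 arrays per group.

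At E13.5 7 of the 10 members were higher in XX cells, against 5.99% of all genes, with a median difference of 1.05 over the 10 members, against 0.02 over all genes. Rec8 differed by 4.04 (95% interval 3.57 to 4.52, adjusted p = 6.45e-06), a 16.5-fold difference of signal. Smc1b differed by 1.58 (adjusted p = 0.00179), Sycp3 by 1.55 (adjusted p = 0.00592), Syce1 by 1.25 (adjusted p = 0.00223), Tex12 by 0.99 (adjusted p = 0.0365), Stag3 by 0.86 (adjusted p = 0.00848) and Hormad1 by 0.80 (adjusted p = 0.0475). Rec8, Smc1b and Syce1 passed whichever of the 4 arrays was left out. The count was 3 without E13.5 female replicate 1, the array with the Y-linked signal, 3 without E13.5 male replicate 2, and 3 without both arrays of high Gapdh difference. Stag3 and Sycp3 were lost without E13.5 female replicate 1 or E13.5 male replicate 2, Tex12 without any but E13.5 female replicate 2, and Hormad1 without any 1 of the 4.

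The 3 members that did not pass at E13.5 were unlike each other. Sycp1 was higher in XX cells by 1.11 (95% interval 0.37 to 1.86, adjusted p = 0.0632) with no overlap of arrays. Syce2 differed by 0.49 (95% interval 0.12 to 0.86, adjusted p = 0.0988), and passed after quantile normalization (0.52, adjusted p = 0.0431). Sycp2 differed by -0.16 (95% interval -0.91 to 0.59, adjusted p = 0.871), and its female and male arrays overlapped. The interval allows a Sycp2 difference of up to 0.59 in favour of XX cells, which lies below the interval of Rec8 and of Smc1b (1.06 to 2.10).

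**Figure D3:**
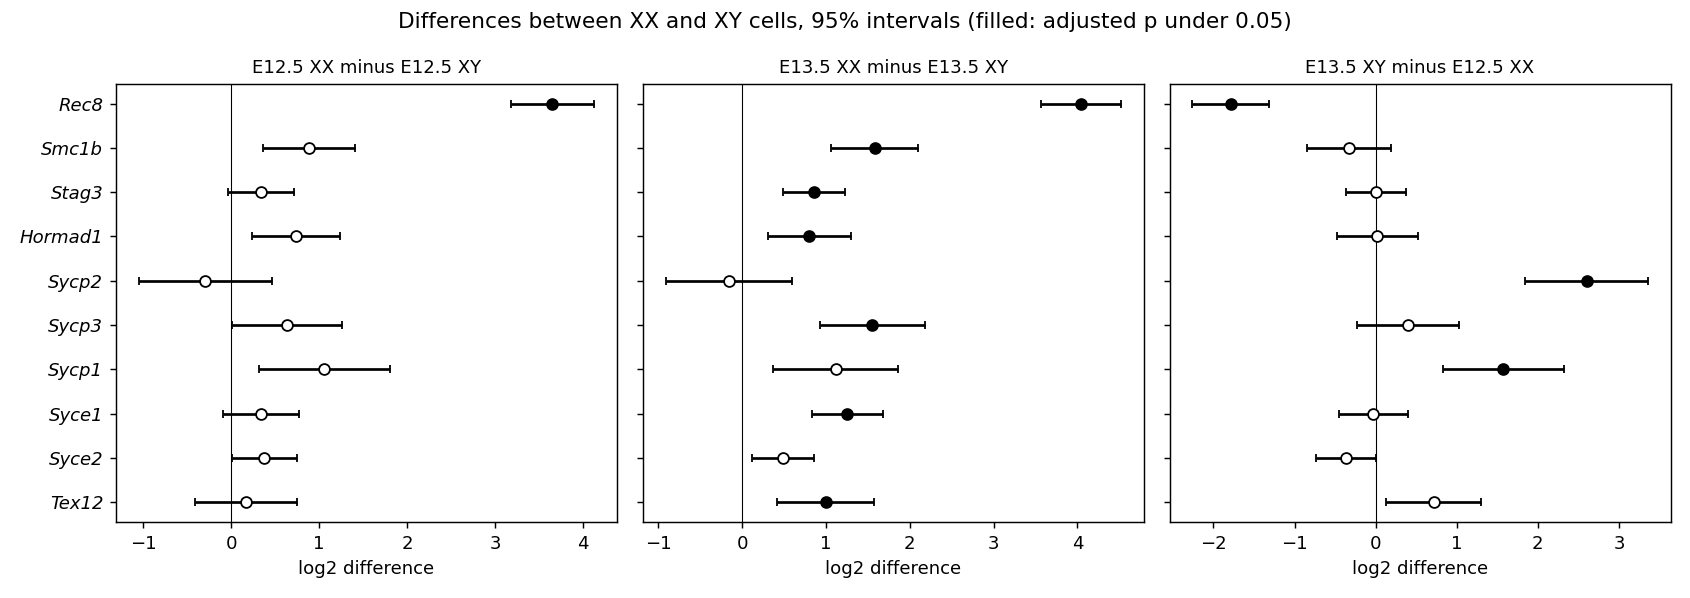
Log2 difference (horizontal axis) of each gene between XX and XY cells at E12.5 and at E13.5, and between E13.5 XY and E12.5 XX cells, with 95% intervals from limma; filled points have an adjusted p under 0.05. Rec8 stands apart at 3.65 and 4.04 between XX and XY cells of the same age and at -1.78 in the last panel, where Sycp1 and Sycp2 lie to the right at 1.57 and 2.60.

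Whether the sex difference grew between E12.5 and E13.5 was tested directly. With limma 0 members passed for the change of the difference, against 0.011% of all genes. At an unadjusted p under 0.05 there were 3 members and 1350 genes. All 10 members had a positive change, with a median of 0.46 against -0.015 over all genes, of which 8808 of 18194 were positive. The changes nearest to the threshold were 0.91 for Syce1 (95% interval 0.31 to 1.52, adjusted p = 0.376) and 0.92 for Sycp3 (95% interval 0.03 to 1.81, adjusted p = 0.65). That of Rec8 was 0.39 (95% interval -0.28 to 1.07). Without E13.5 female replicate 1, and without both arrays of high Gapdh difference, 0 members passed as well, with 1 member and 1302 genes in the first of these fits and 2 members and 1010 genes in the other at an unadjusted p under 0.05. The 7 passing members at E13.5 against 1 at E12.5 are therefore not shown to be a growth of the difference.

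A comparison of E13.5 males with E12.5 females, 1 day apart, put the XY cells of the later age beside the XX cells of the earlier one. Of the 10 members, 2 were higher in E13.5 males, Sycp2 by 2.60 (adjusted p = 0.00119) and Sycp1 by 1.57 (adjusted p = 0.019), against 3.16% of all genes. Rec8 was lower by 1.78 (log2 difference -1.78, adjusted p = 0.000677), against 3.36% of all genes. Its signals were 7.45 and 7.32 in E13.5 males, against 9.08 and 9.26 in E12.5 females. The differences of Stag3 (0.01, 95% interval -0.36 to 0.38), Hormad1 (0.02, 95% interval -0.48 to 0.52) and Syce1 (-0.03, 95% interval -0.46 to 0.40) lay near 0 with overlapping arrays. Smc1b, at -0.33 (95% interval -0.85 to 0.19), Sycp3, at 0.40, and Tex12, at 0.72 (adjusted p = 0.157), did not pass. The Sycp1 call was lost when any 1 of the 4 arrays was left out, and the Sycp2 and Rec8 calls held each time. Without both arrays of high Gapdh difference Sycp2 (2.84) and Rec8 (-1.72) passed and Sycp1 did not (1.63, adjusted p = 0.134). Sex and age both differ in this comparison and cannot be told apart.

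The earlier step from E9.5 to E10.5 concerned 5 members, all higher at E10.5: Hormad1 by 2.83 (adjusted p = 0.00121), Smc1b by 2.59 (adjusted p = 0.00385), Tex12 by 1.87 (adjusted p = 0.0082), Syce1 by 1.38 (adjusted p = 0.00686) and Stag3 by 1.35 (adjusted p = 0.00389). Of all genes, 0.715% were higher. Sycp1 and Sycp2 were dim at E9.5, and their changes of 1.29 (adjusted p = 0.119) and 1.42 (adjusted p = 0.0863) did not pass. Rec8 changed by -0.35 and Syce2 by -0.26, with overlapping arrays. Without E10.5 replicate 1 the log2 changes were 1.87 for Sycp1, 1.22 for Sycp3 and -0.52 for Syce2. Strain, RNA kit and PCR cycles also differed between E9.5 and E10.5 and cannot be told apart from age.

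Most general cohesin genes did not pass against E10.5, and neither did most of all genes. Of 17 general subunits, loaders and regulators, 0 passed against E10.5 in E12.5 females or in E12.5 males with limma, where 3.7% and 1.87% of all genes were higher, and 3 in each had an unadjusted p under 0.05. At E13.5 the females had 3 that were higher, against 11.5% of all genes: Espl1 (separase) by 0.97, Nipbl (the cohesin loader) by 0.90 and Esco1 (a cohesin acetyltransferase) by 0.75, and Cdca5 (sororin, a cohesion factor) was lower (log2 change -0.95, adjusted p = 0.00712). In E13.5 males 1 was higher, Nipbl by 0.78, against 7.52% of all genes. Rad21 had signals of 12.71 and 12.53 in females and 12.82 and 12.59 in males of E13.5, against 12.80 and 12.66 at E10.5, and its changes were -0.11 (95% interval -0.42 to 0.20) in females and -0.02 (95% interval -0.34 to 0.29) in males. The Rec8 changes over the same arrays were 4.82 (95% interval 4.34 to 5.29) and 0.77 (95% interval 0.29 to 1.25). Smc1a changed by -0.21 in E13.5 females (95% interval -0.68 to 0.26) and -0.54 in E13.5 males (adjusted p = 0.134), and the Smc1b intervals began at 4.03 and 2.45. Stag1 (0.14 and -0.05) and Smc3 (0.36 and 0.04), a subunit of general and meiotic rings alike, did not pass in either sex. Stag2 changed by 0.41 in females and 1.29 in males at E13.5 (adjusted p = 0.0772). These values are those of the brightest probe set of each general gene. Other Rad21 probe sets averaged 7.98 and 10.94 at E10.5, 6.70 and 10.76 in E13.5 females, and 6.435 and 10.775 in E13.5 males. The E10.5 replicates of the first of these were 8.99 and 6.97. No test was made between genes.

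**Figure D4:**
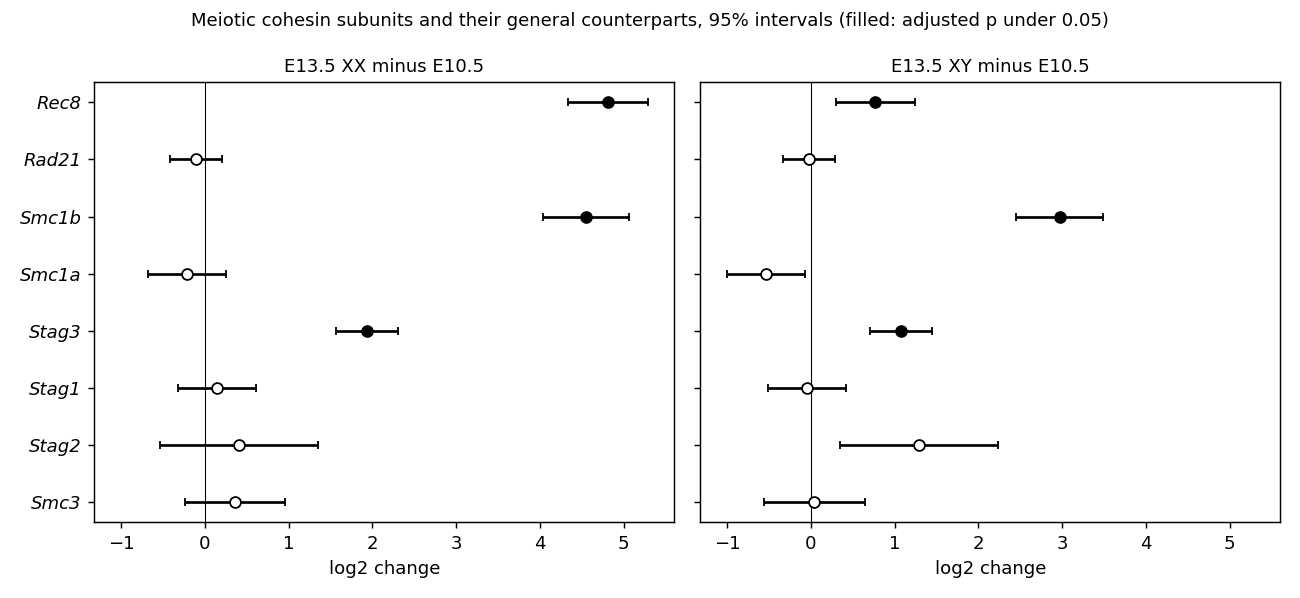
Log2 change from E10.5 (horizontal axis) in E13.5 XX cells (left) and E13.5 XY cells (right) of the meiotic cohesin subunits Rec8, Smc1b and Stag3 and of the general subunits Rad21, Smc1a, Stag1, Stag2 and Smc3, with 95% intervals from limma; filled points have an adjusted p under 0.05. The intervals of Rec8, Smc1b and Stag3 lie to the right of those of Rad21, Smc1a, Stag1 and Smc3 in XX cells, and Rec8 lies at 0.77 in XY cells.

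Some related meiotic genes that are not members also passed against E10.5, where the shares of all genes that were higher were 3.7% in E12.5 females, 11.5% in E13.5 females, 1.87% in E12.5 males and 7.52% in E13.5 males. Of 6 measured genes of the axis and complex outside the set, Syce3 (central element) was higher than at E10.5 by 3.16 in females at E12.5, 3.91 in females at E13.5 and 2.15 in males at E13.5, and Hormad2 (axis) by 1.17, 2.04 and 1.44. In E12.5 males none of the 6 passed, and the change of Syce3 was 2.35 (adjusted p = 0.0553). Sgo2a (shugoshin, a protector of centromeric cohesin) was lower in E13.5 females (log2 change -1.01, adjusted p = 0.0108). Of 15 recombination genes, 7 were higher in E12.5 females and 12 in E13.5 females, against 4 in E12.5 males and 7 in E13.5 males. Spo11, which makes the DNA breaks of meiosis, was above E10.5 by 3.32 in females and 3.17 in males at E13.5, while Dmc1, the meiotic recombinase, was higher by 3.22 in E13.5 females and higher in females than in males by 2.47 (adjusted p = 0.00127). Of 5 genes for telomere attachment to the nuclear envelope, 4 were higher in E13.5 females (Terb1 by 4.33, Spdya by 4.30, Majin by 2.67 and Terb2 by 1.96) and 1 in E13.5 males (Terb1 by 1.75). Of 9 measured meiosis regulators, 8 were higher in E12.5 females and 9 in E13.5 females, against 5 in E12.5 males and 7 in E13.5 males. Among them Stra8 had signals of 9.82 and 10.08 in E12.5 females, 3.87 and 4.87 in E12.5 males, and at E13.5 they were 12.89 and 12.35 in females and 6.20 and 5.39 in males. Its female and male arrays did not overlap at either age.

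Over the 12 arrays of E10.5 and later, the members varied together to different degrees. Among the 45 pairs of members, Pearson's r ranged from 0.316 (Sycp2 with Syce2) to 0.985 (Stag3 with Sycp3). Of 1535 other genes compared, those most like the mean course of the members were Arhgap44 (r = 0.987), Dusp16 and Dock3 (r = 0.982 each), Abca1 (r = 0.979) and Araf (r = 0.978). These correlations describe arrays that share groups and carry no test. All 10 members were higher in E13.5 female replicate 1 than in replicate 2, with means of 11.8 and 11.4 over the members, and 8 of 10 were higher in E13.5 male replicate 1 than in replicate 2, with means of 10.4 and 10.2. At E13.5 the arrays with the lower means were those with the high Gapdh difference. At E9.5, E10.5 and E11.5, 7, 7 and 8 members were instead higher on the replicate with the higher Gapdh difference. At E12.5 the replicates were close in it, at 1.15 and 1.17 in females and 0.80 and 0.87 in males. The part of the Gapdh difference in these replicate gaps was not tested.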

How the data were processed

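The deposited table held log2 probe set signals that the authors had normalized over all 14 arrays together, per the series' design text. Which software and background correction they used is not stated in the labels or files. A range of 0 to 14.04 fixed the scale as log2. Of 45101 probe sets, 34945 had a single gene symbol in the platform annotation, 932 had several, 9224 had none, and 64 were controls. Updated symbols came from RefSeq by Entrez identifier (34741 matched). For each of 18194 genes, the probe set of highest mean signal was used.

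Group means were modelled in limma 3.58.1 (R 4.3.3), moderating variances along an intensity trend. A fit of the 12 later arrays served 13 comparisons (6 residual degrees of freedom), and a fit of all 14 served the step after E9.5 (7 residual degrees of freedom). Adjustment of the two-sided p-values followed Benjamini and Hochberg over all genes of a comparison, with a threshold of 0.05, and intervals are at 95%. The standard error of a typical gene of above-median level was 0.25. The replicates are called biological in the sample titles.

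The members, lists and comparisons were chosen with earlier results of these data known. Genes outside the members are named by rule: general cohesin counterparts always, check genes such as Stra8 and Eif2s3y, up to 4 passing genes of each other list, and the 5 genes with the highest correlation. Of the lists, 4 genes of the axis list, 3 of the recombination list and 1 each of the telomere, regulator, germ cell and blood lists had no probe set with a single symbol here. Figures were drawn with matplotlib.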

Additional observations from a re-analysis of the deposited data

Results flagged for a closer look

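In the following results the 2 sexes differed by test in their change from the unsexed arrays they share, so that the difference in change equals the difference between XX and XY cells of the same age. At E12.5 this held for Rec8, with a log2 difference of 3.65. At E13.5 it held for Rec8 (4.04), Smc1b (1.58), Stag3 (0.86), Sycp3 (1.55), Syce1 (1.25), Hormad1 (0.80) and Tex12 (0.99), all higher in XX cells. Groups of 2 arrays are too small to test whether 1 value lies far from the rest of its group.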

How the results depend on the processing

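Of 2200 gene values under other settings, 2016 kept their side of the threshold, 161 no longer passed, 23 newly passed and 0 of the called ones changed sign, while 39 changed sign where neither fit passed. The alternative that leaves out both E13.5 arrays with a Gapdh difference above 3 was chosen after the data were seen. The cause of the shifts listed here was not tested.

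Fitted on the compared arrays alone, the number of passing members was 0 in E12.5 females and 0 in E12.5 males against E10.5 (8 each in the full fit, with 9 and 8 at an unadjusted p under 0.05), 0 at E10.5 against E9.5 (5 in the full fit, 7 unadjusted), 2 in E12.5 females against E11.5 (4 in the full fit) and 3 between the sexes at E12.5 (1 in the full fit). Over all genes the first 3 of these gave 0, against 1040, 851 and 193 in the full fit. E12.5 females against E11.5 gave 40 against 338, and the sexes at E12.5 gave 755 against 435. For E11.5 against E10.5 (0 in the full fit), 1 member passed after quantile normalization and 1 after median centring. For E12.5 males against E11.5 (0 in the full fit), 1 passed after quantile normalization, 2 after median centring, 1 with dim genes left out and 1 with all 14 arrays. For E12.5 females against E11.5, 2 passed with a floor at the 25th percentile and 2 without the intensity trend. The Gapdh difference of every array was also fitted as a covariate. From E12.5 to E13.5, 8 members and 140 genes then passed in females (8 and 341 in the full fit). In males 2 members and 97 genes passed (3 and 381). Between the sexes at E13.5, 6 members and 1892 genes passed (7 and 1851). Without both arrays of high Gapdh difference, 1 member passed between E13.5 and E12.5 in females, 0 in males (7 unadjusted), and 3 between the sexes at E13.5.

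With 1 array left out at a time, the lowest and highest counts were 0 and 1 for E11.5 against E10.5, 6 and 9 for E12.5 females, 9 and 10 for E13.5 females, 2 and 8 for E12.5 males and 7 and 8 for E13.5 males against E10.5. They were 1 and 2 for E12.5 females and 0 and 0 for E12.5 males against E11.5, 0 and 6 for females and 1 and 3 for males from E12.5 to E13.5, 1 and 1 between the sexes at E12.5, 3 and 6 at E13.5, 0 and 0 for the change of that difference, 2 and 2 for E13.5 males against E12.5 females, and 4 and 8 for E10.5 against E9.5. The number of members with an earlier onset in XX cells lay between 2 and 7. In these fits the remaining array of a group is assumed to vary like the other groups. Counts over all genes also moved when an array was left out, so these ranges do not describe the members alone.

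With the replicate number as a block, the sex difference at E13.5 counted 6 members instead of 7, and the block changed no other count of members. Same-numbered arrays correlated between -0.19 and 0.27 in their deviations over 15 pairs of groups, with 2 pairs over 0.1, so the numbers were not taken to pair the arrays.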
